A study of Mus musculus with 8 samples.

Results

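The 53 genes described here are the ephrins (symbols Efna and Efnb with a number), their Eph receptors (Epha and Ephb), the semaphorins (Sema), the plexins (Plxn) and the neuropilins Nrp1 and Nrp2, selected by symbol from the 26229 genes of the authors' deposited table. They comprised 28 ligand genes (8 ephrins and 20 semaphorins) and 25 receptor genes (14 Eph receptors, 9 plexins and 2 neuropilins). Polyadenylated RNA was sequenced from primary cortical neurons of mouse embryos at E16.5 after 12 days in culture. The 4 knockout libraries (KO) carried the genotype H2BE-KO/mCherry-KI, in which the gene of the histone H2B variant H2BE is knocked out with an mCherry knock-in, and the 4 wild-type libraries (WT) came from WT neurons, all described as biological replicates. Nothing in the labels says how many embryos or litters each culture drew on. Such cultures hold projection neurons and interneurons together with some glia, so a change per gene cannot separate fewer cells of a type from less RNA per cell.

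Ephrins and semaphorins are cues that steer growing axons and dendrites, mostly by repulsion, and both systems act again when synapses form and are pruned. Ephrin-A proteins are held in the membrane by a lipid anchor and bind mainly EphA receptor tyrosine kinases, whereas ephrin-B proteins cross the membrane and bind mainly EphB receptors. Because both partners are on cell surfaces, signals can run forward into the Eph cell and in reverse into the ephrin cell. Class 3 semaphorins are secreted and mostly need a neuropilin as the binding subunit and a plexin as the signalling subunit. Classes 4 to 7 are bound to the membrane and mostly bind plexins directly.

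Each fold change, with its standard error (SE) and adjusted p, is that of the authors' deposited table, given as KO over WT on the log2 scale. The SE is the only measure here of spread among the libraries of each genotype, 4 KO and 4 WT. No values per library were used. The header of the table names no direction, so the sign was taken from the targeted gene. H2bc21, the gene of H2BE, was set to fall in the KO, where it lay at -3.45 (SE 0.19, adjusted p = 4.49e-68). Should that reading be wrong, rises and falls would change places throughout. Where levels are given for KO and WT, they are the mean normalized counts that the deposited mean over the 8 libraries and the fold change imply together, per kb of annotated exon, and they carry no error of their own.

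The guidance genes leaned towards higher levels in the KO. Of the 52 members with an adjusted p, 24 rose, 5 fell and 23 did not pass the adjusted p threshold of 0.05. Their median log2 fold change was 0.33. Of all 18085 tested genes, 21.8% passed: 11.0% of all tested genes were higher and 10.9% lower in the KO, and the median was -0.02. At an unadjusted p under 0.05, the cut used for some lists here, 16.1% of all tested genes were higher and 16.9% lower. Of the 52 tested members, 46.2% were higher and 9.62% lower at the adjusted p threshold of 0.05. At an unadjusted p under 0.05, 27 members were higher and 5 lower. The members are more abundant than most genes, with a median mean normalized count of 1422 against 438 for all tested genes. Among the 11537 tested genes of mean count 100 or more, 14.6% rose and 14.2% fell. Of the 45 members at that level, 23 rose and 4 fell. The counts rest on the normal null of the Wald test. Centred on the median and scaled to the spread of all tested genes, the statistics called Sema3f, Ephb1 and Plxnd1 higher and 0 members lower. Of all tested genes, 59 were then higher (0.326%) and 25 lower (0.138%). At an unadjusted p under 0.05 that scaling gave 12 members higher and 2 lower, against 4.94% and 3.67% of all tested genes. A t distribution with 6 degrees of freedom called 0 members and, of all 18085 genes, 1 as lower (0.00553%) and 0 as higher, and unadjusted it gave 24 members higher and 5 lower, against 11.6% and 11.7%. At an adjusted p of 0.01, 17 members were higher and 3 lower, against 7.35% and 6.59% of all tested genes. At an adjusted p of 0.05 with an absolute log2 fold change of at least 0.5, 17 were higher and 4 lower, against 7.43% and 7.24%. The remaining gene, Plxnb3, had a mean normalized count of 1.44 and no adjusted p.

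**Figure D1:**
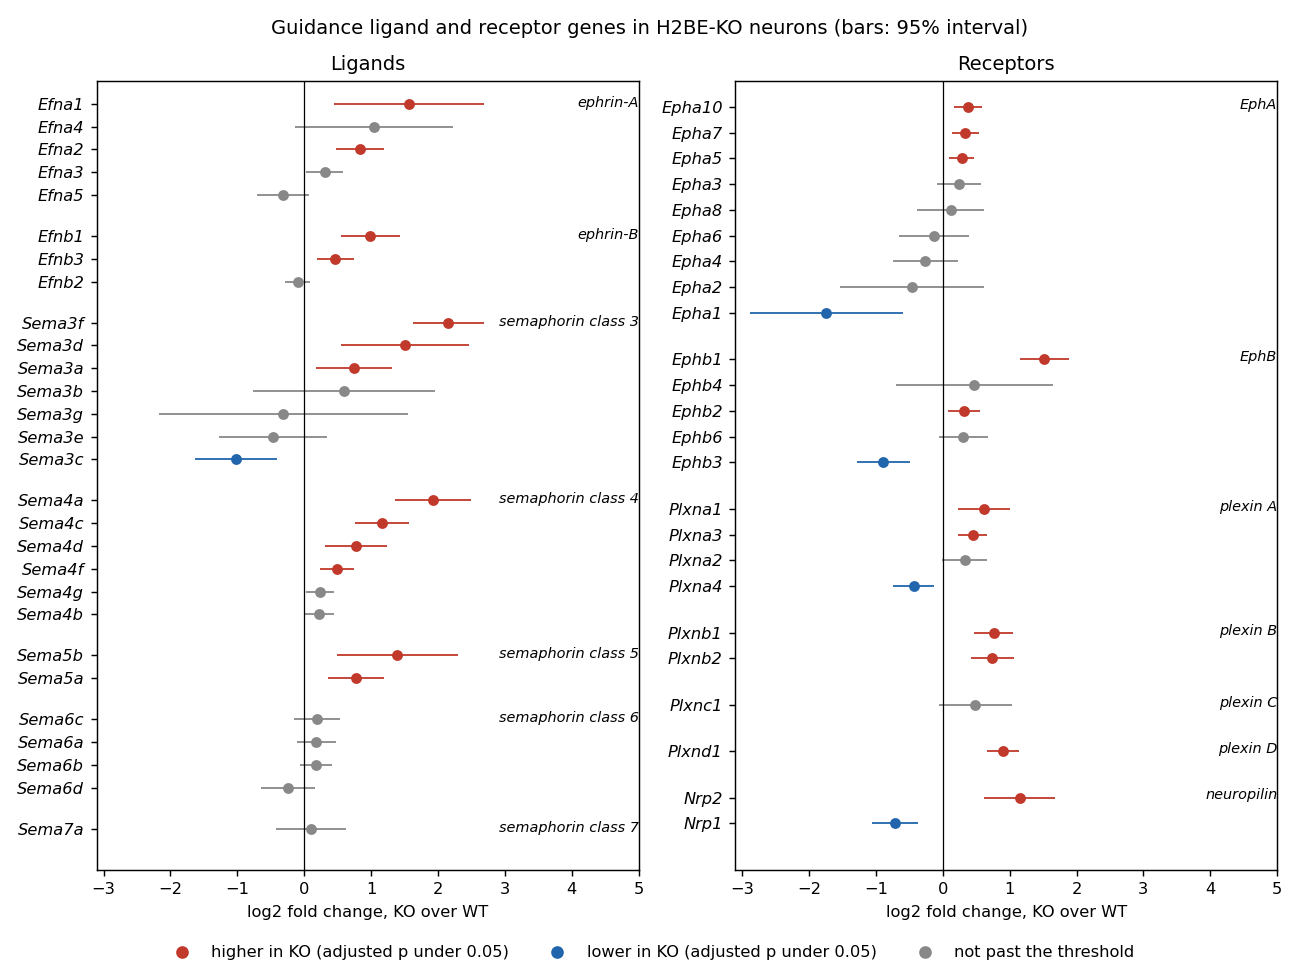
Log2 fold change in KO over WT neurons (x axis) of the 28 ligand genes (left) and the 24 receptor genes with an adjusted p (right), by class, with 95% intervals from the deposited SE. Red marks the 24 genes that rose, blue the 5 that fell and grey the 23 that did not pass. Most coloured points lie right of 0, and Sema3c is the blue point among the ligands.

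Ligands and receptors showed similar shares of rises. Of 28 ligands, 13 rose and 1 fell, and the median log2 fold change was 0.48. Of 24 tested receptors, 11 rose and 4 fell, with a median of 0.32. With an absolute log2 fold change of at least 0.5 as well, 11 ligands and 6 receptors were higher, against 7.43% of all tested genes. Fold changes of ligands reached from -1.02 for Sema3c to 2.16 for Sema3f, and those of receptors from -1.74 for Epha1 to 1.52 for Ephb1. Summed over members, the implied count of the ligands in the KO was 1.20 times that in WT, and that of the receptors 1.24 times. These are counts and medians over genes, which are not replicates, so the difference between ligands and receptors was given no test.

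**Figure D2:**
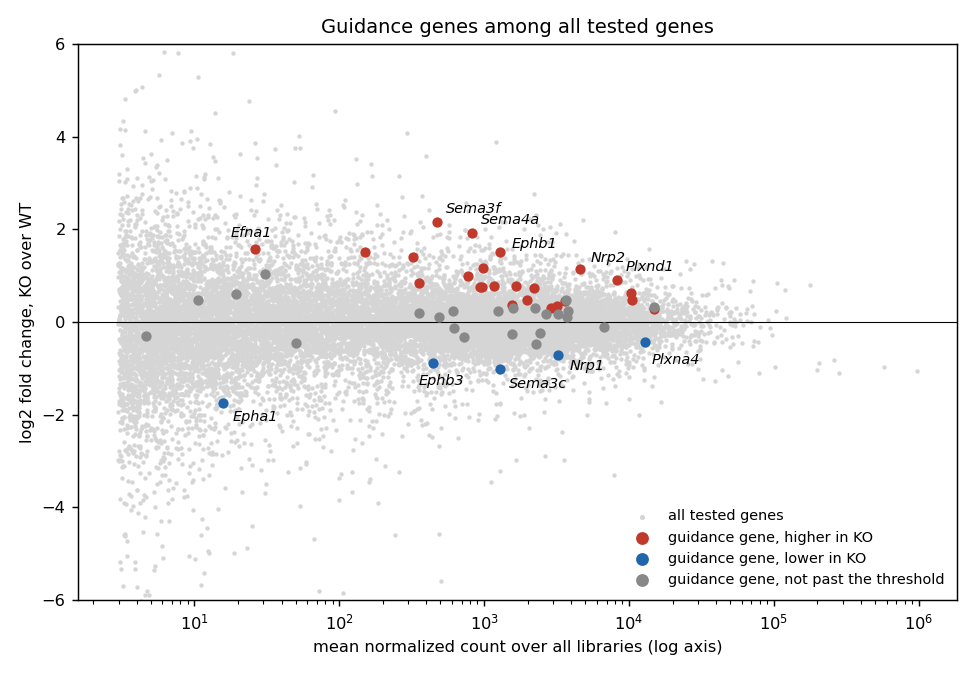
Log2 fold change in KO over WT neurons (y axis) against the mean normalized count over all libraries (x axis, log scale) for all tested genes (light grey) and the 52 tested guidance genes (red higher in KO, blue lower, dark grey not past the threshold). The y axis is limited to 6 either way, which leaves out 12 genes that are not guidance genes. The guidance genes with the largest rises, Sema3f and Sema4a, have intermediate counts.

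Ephrin genes rose or did not pass, and none fell. Of 8 ephrin genes, 4 rose and 0 fell in the authors' DESeq2 comparison, and at an unadjusted p under 0.05 the numbers were 5 and 0. Efnb3, which encodes a transmembrane ephrin known for keeping corticospinal axons from recrossing the midline, was the most abundant ligand of all. Its implied level was 3831 per kb in the KO against 2770.1 per kb in WT, and it rose 1.38-fold (log2 fold change 0.47, SE 0.14, adjusted p = 0.00886). Efnb1, a ligand for several EphB receptors, rose 1.99-fold to 299 per kb in the KO, against 151 per kb in WT (log2 fold change 0.99, SE 0.22, adjusted p = 1.61e-04). The third ephrin-B gene, Efnb2, which is also known from arterial endothelium, was the second most abundant ephrin gene and had a log2 fold change of -0.10 (95% interval -0.29 to 0.09). The interval of Efnb2 thus lay below the fold changes of Efnb1 and Efnb3.

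Among the 5 ephrin-A genes, Efna2 and Efna1 rose. Efna2, one of the ephrins that map axons topographically in the visual system, had an implied level of 212 per kb in the KO and 119 per kb in WT (log2 fold change 0.84, SE 0.18, adjusted p = 7.74e-05). Efna1 was scarce, at 21.6 per kb in the KO and 7.26 per kb in WT, and its fold change of 1.57 had an SE of 0.57 (adjusted p = 0.0312). Efna3 (0.31, SE 0.14, adjusted p = 0.0995) and Efna4 (1.05, SE 0.60) did not pass. Efna5, another mapping ephrin, had the opposite sign at -0.32 (95% interval -0.71 to 0.07, adjusted p = 0.259). Efna1, Efna3 and Efna4 lie close together on chromosome 3, between 89271733 and 89338028 in GRCm38, and all had positive fold changes.

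Eph receptors changed in both directions, and the largest changes were in EphB genes and in the scarce Epha1. Of 14 Eph genes, 5 rose and 2 fell, and their median log2 fold change was 0.26. Ephb1, a receptor known for steering retinal axons to the same side of the brain, rose most among the receptor genes, and its adjusted p was the smallest of all tested members. Its implied level was 274 per kb in the KO and 95.9 per kb in WT (log2 fold change 1.52, SE 0.19, adjusted p = 1.82e-13). Ephb3, a close relative that acts with Ephb2 in forming the corpus callosum, fell to 46.8 per kb in the KO, against 86.7 per kb in WT (log2 fold change -0.89, SE 0.20, adjusted p = 1.71e-04). The intervals of these paralogs lay on opposite sides of 0, from 1.15 to 1.88 for Ephb1 and from -1.28 to -0.50 for Ephb3. Ephb2, which associates with NMDA receptors at excitatory synapses, rose by little (0.31, SE 0.12, adjusted p = 0.0447). Ephb6, whose kinase domain is inactive, was at 0.31 (SE 0.19, adjusted p = 0.251), and Ephb4, the vascular partner of Efnb2, was at 0.47 (SE 0.60) with a mean normalized count of 10.7.

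The start regions of Ephb1 and Ephb3 are shown because these paralogs moved in opposite directions. Each run gives the 250 bases before the annotated start on the gene's own strand, from RefSeq on GRCm38.p6, with GC boxes (GGGCGG, or CCGCCC for the other strand), the motif of Sp1-type factors, in capitals. The pair was chosen after its values were seen.
Ephb1, minus strand, chr9:102354694-102354943: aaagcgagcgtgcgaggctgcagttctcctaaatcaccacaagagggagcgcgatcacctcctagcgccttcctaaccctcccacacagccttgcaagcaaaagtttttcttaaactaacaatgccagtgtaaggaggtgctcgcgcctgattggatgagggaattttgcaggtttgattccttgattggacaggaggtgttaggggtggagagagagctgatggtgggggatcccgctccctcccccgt
Ephb3, plus strand, chr16:21204545-21204794: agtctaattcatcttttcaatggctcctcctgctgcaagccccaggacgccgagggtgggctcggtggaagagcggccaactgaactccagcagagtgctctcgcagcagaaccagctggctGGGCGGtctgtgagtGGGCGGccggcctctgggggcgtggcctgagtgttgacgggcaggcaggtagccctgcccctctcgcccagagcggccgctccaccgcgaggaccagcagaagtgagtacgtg
The Ephb1 window had 0 GC boxes and 10 CpG dinucleotides at 54.0% GC, and the Ephb3 window had 2 GC boxes and 16 CpG at 65.6% GC. Of all 32851 windows of this length in the table, 32.7% held a GC box, and of the 15683 windows of genes tested here 54.5%. Windows were found for 47 of the 53 members, some with several starts. A GC box was present in 20 of the 30 windows of members that rose (66.7%) and in 26 of the 31 windows of the other members (83.9%).

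Apart from the scarce Epha1, EphA genes changed by less than Ephb1 and Ephb3. Epha5, the most abundant Eph receptor at 970.1 per kb in the KO and 799 per kb in WT, rose 1.21-fold (log2 fold change 0.28, SE 0.10, adjusted p = 0.0205). Epha7 (0.34, SE 0.10, adjusted p = 0.00773), a repulsive receptor that also limits dendritic growth in cortical neurons, rose as well. So did Epha10 (0.37, SE 0.11, adjusted p = 0.00405), whose kinase domain is inactive. These rises were small in size and small in error, at mean normalized counts from 1557 for Epha10 to 14806 for Epha5. Epha4, which binds ephrins of both classes, was at -0.26 (SE 0.25), Epha3 at 0.24 (SE 0.17), Epha6 at -0.13 (SE 0.26) and Epha8 at 0.12 (SE 0.25). Epha2, best known from epithelia, was at -0.46 (SE 0.55). Epha1, also mainly an epithelial receptor, fell (-1.74, SE 0.58, adjusted p = 0.0176), and its mean normalized count was 15.8. Its exons overlap those of Zyx on the opposite strand over 6.01% of their length, and Zyx had a mean normalized count of 1732, so that the count of Epha1 is uncertain if strand was not used in counting. Exons of 14 members in all overlap those of another annotated gene, and apart from Zyx the overlapping genes with a row in the table had mean normalized counts of at most 30.7.

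Semaphorin genes held the largest rises of the ligands. Of 20 genes, 9 rose and 1 fell, and their median log2 fold change was 0.36. Class 3, the secreted semaphorins, was the class that split. Sema3f, which repels axons and restrains spines through Nrp2, rose 4.46-fold to 148 per kb in the KO, against 33.2 per kb in WT (log2 fold change 2.16, SE 0.27, adjusted p = 1.53e-12). Sema3c, an attractant for cortical axons, fell to 119 per kb in the KO, against 242 per kb in WT (log2 fold change -1.02, SE 0.31, adjusted p = 0.00837). The order of the implied levels per kb of these genes was thus the reverse in the KO of what it was in WT. As implied counts not divided by exon length, Sema3c stayed above Sema3f in the KO, at 848 against 769. Sema3d rose 2.85-fold (log2 fold change 1.51, SE 0.49, adjusted p = 0.0135) at a low level, 25.8 per kb in the KO and 9.03 per kb in WT. Sema3a, a repellent of cortical axons that attracts apical dendrites, rose 1.68-fold (log2 fold change 0.75, SE 0.29, adjusted p = 0.0447). Its adjusted p was the closest to the threshold among the members that passed.

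The other class 3 genes did not pass. Sema3e, which signals through Plxnd1 without a neuropilin, was the most abundant class 3 gene at 247 per kb over all libraries and had a wide error (-0.46, SE 0.41). Sema3b (0.60, SE 0.70) and Sema3g (-0.31, SE 0.95) had mean normalized counts of 19.3 and 4.64. Sema3d, Sema3a, Sema3e and Sema3c lie in this order on the plus strand of chromosome 5, between 12383385 and 17730268 in GRCm38. Along that stretch 2 of the genes rose, 1 did not pass and 1 fell. Sema3b and Sema3f lie close together on chromosome 9.

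Classes 4 and 5, which cross the membrane, had positive fold changes throughout. Of 6 class 4 genes, 4 rose and 0 fell, and all 6 were higher at an unadjusted p under 0.05. Sema4a, known mainly from immune cells and the retina, rose 3.80-fold to 241 per kb in the KO, against 63.3 per kb in WT (log2 fold change 1.93, SE 0.29, adjusted p = 3.19e-09). Sema4c, a ligand of Plxnb2, rose 2.24-fold (log2 fold change 1.16, SE 0.20, adjusted p = 5.90e-07), and its implied levels were 297 per kb in the KO and 133 per kb in WT. Sema4d, a ligand of Plxnb1 that promotes synapse assembly in hippocampal cultures, rose 1.71-fold (log2 fold change 0.77, SE 0.23, adjusted p = 0.00697). Sema4f, which binds the scaffold PSD-95, rose 1.40-fold (log2 fold change 0.48, SE 0.13, adjusted p = 0.00197). Sema4b and Sema4g had log2 fold changes of 0.23 each (SE 0.11 each, adjusted p = 0.113 and 0.107) and did not pass.

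Both class 5 genes, whose proteins carry thrombospondin repeats, rose. Sema5a, which limits synapse number in the dentate gyrus, rose 1.71-fold (log2 fold change 0.77, SE 0.21, adjusted p = 0.00304), and Sema5b rose 2.63-fold (log2 fold change 1.40, SE 0.46, adjusted p = 0.0165). Class 6, the transmembrane ligands of class A plexins, gave 0 calls of 4 genes in the DESeq2 comparison, and 0 at an unadjusted p under 0.05. Sema6a (0.18, SE 0.15), Sema6b (0.17, SE 0.12), Sema6c (0.20, SE 0.17) and Sema6d (-0.24, SE 0.21) had 95% intervals that lay within -0.65 and 0.54. Sema7a, which has a lipid anchor and binds Plxnc1 and integrins, was the most abundant semaphorin gene per kb at 1131 over all libraries and had a log2 fold change of 0.10 (SE 0.27). The most abundant membrane semaphorins, Sema7a and Sema6b, were thus not among the genes that passed, and the summed implied count of class 6 in the KO was 1.04 times that in WT, against 1.49 times for class 4.

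**Figure D3:**
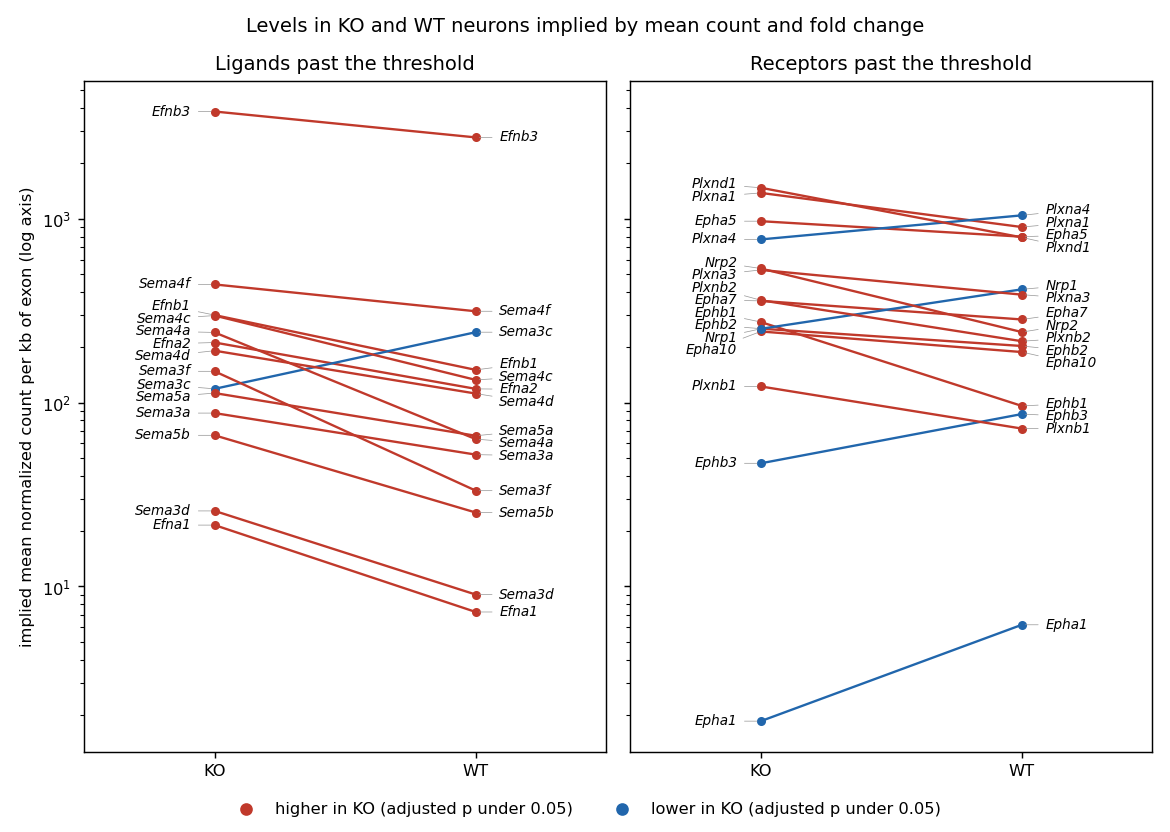
Implied mean normalized count per kb of exon (y axis, log scale) in KO (left) and WT (right) neurons for the 14 ligand genes and the 15 receptor genes past the threshold. Lines join the values of a gene, red where it rose and blue where it fell. The lines of Sema3f and Sema3c cross, as do those of Nrp2 and Nrp1. Without division by exon length, the lines of Sema3f and Sema3c would not cross.

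Plexin genes, which include the most abundant receptors per kb, rose in 5 of 8 tested cases and fell in 1, with a median log2 fold change of 0.55. Plxnd1, the receptor of Sema3e, rose 1.86-fold to 1475 per kb in the KO, against 792 per kb in WT (log2 fold change 0.90, SE 0.12, adjusted p = 6.87e-11). The B plexins Plxnb1 (0.76, SE 0.15, adjusted p = 1.21e-05) and Plxnb2 (0.74, SE 0.16, adjusted p = 1.14e-04), receptors of class 4 semaphorins, rose by nearly the same amount. Class A plexins, the signalling partners of neuropilins and of class 6 semaphorins, did not move together. Plxna1 (0.62, SE 0.20, adjusted p = 0.0126) and Plxna3 (0.45, SE 0.11, adjusted p = 6.98e-04) rose, and Plxna2 was at 0.33 (SE 0.17, adjusted p = 0.163). Plxna4 fell to 772 per kb in the KO, against 1044 per kb in WT (log2 fold change -0.44, SE 0.16, adjusted p = 0.0301). The interval of Plxna4, from -0.74 to -0.13, did not overlap those of Plxna1, from 0.23 to 1.01, and Plxna3, from 0.23 to 0.66. Plxnc1, the Sema7a receptor, was at 0.49 (SE 0.28, adjusted p = 0.215).

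Both neuropilin genes passed the threshold and moved in opposite directions. Nrp2, which prefers Sema3f, rose 2.22-fold to 536 per kb in the KO, against 242 per kb in WT (log2 fold change 1.15, SE 0.27, adjusted p = 3.19e-04). Nrp1, which prefers Sema3a and also binds VEGF, fell to 252 per kb in the KO, against 413 per kb in WT (log2 fold change -0.71, SE 0.18, adjusted p = 6.89e-04). The implied level of Nrp2 was above that of Nrp1 in the KO and below it in WT.

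Their start regions are shown in the same way, with GC boxes in capitals and the same source and build. Their choice also followed the values.
Nrp2, plus strand, chr1:62703067-62703316: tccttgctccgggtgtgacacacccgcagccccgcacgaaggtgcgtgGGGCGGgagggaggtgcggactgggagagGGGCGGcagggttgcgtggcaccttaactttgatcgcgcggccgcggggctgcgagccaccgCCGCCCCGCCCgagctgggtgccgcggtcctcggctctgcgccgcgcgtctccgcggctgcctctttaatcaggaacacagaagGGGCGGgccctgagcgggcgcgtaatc
Nrp1, plus strand, chr8:128358823-128359072: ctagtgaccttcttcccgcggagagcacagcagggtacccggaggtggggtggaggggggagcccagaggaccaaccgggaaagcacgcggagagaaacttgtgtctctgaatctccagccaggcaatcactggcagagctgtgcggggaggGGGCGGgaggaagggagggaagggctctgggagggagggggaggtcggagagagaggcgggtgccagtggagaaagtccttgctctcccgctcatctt
The Nrp2 window had 5 GC boxes, a pair of them overlapping, and 32 CpG dinucleotides at 72.4% GC. The Nrp1 window had 1 GC box and 11 CpG at 64.4% GC. In GENCODE, the annotation used for exon lengths, Nrp1 starts at 128358604, so its whole window lies inside that gene. The windows of Nrp2 and Ephb3 also run past their GENCODE starts, 62703285 and 21204755, so the windows are not strictly like regions. In this pair the gene that rose had more boxes and CpG, whereas of the EphB pair it was the gene that fell.

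Ligands and receptors that are known to bind each other are set side by side here as values, with pairs picked after the values were seen. Both genes rose in 12 of the 26 pairs, both fell in 1, the genes moved in opposite directions in 4, and in 9 at least 1 gene did not pass. The same genes recur across pairs, and Efnb2 was paired only with the scarce Ephb4, so these counts depend on the pairs picked. Taken singly, 46.2% of the tested members rose and 9.62% fell, against 11.0% and 10.9% of all tested genes. Sema3f (2.16) and its receptor Nrp2 (1.15) were both higher in the KO. Sema3a (0.75) was higher while its receptor Nrp1 (-0.71) was lower, and Sema3c (-1.02) was lower with 1 of its receptors lower and the other, Nrp2, higher. Sema4d (0.77) and Plxnb1 (0.76) had nearly equal fold changes, and Sema4c (1.16) and Plxnb2 (0.74) were both higher. Sema5a (0.77) was higher together with Plxna1 (0.62) and Plxna3 (0.45). For the ephrins, Efnb1 (0.99) and Efnb3 (0.47) were higher together with Ephb1 (1.52) and Ephb2 (0.31), whereas Ephb3 (-0.89) was lower. Plxnd1 (0.90) was higher together with its ligand Sema4a (1.93), while its other ligand in the list, Sema3e (-0.46, adjusted p = 0.466), did not pass.

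**Figure D4:**
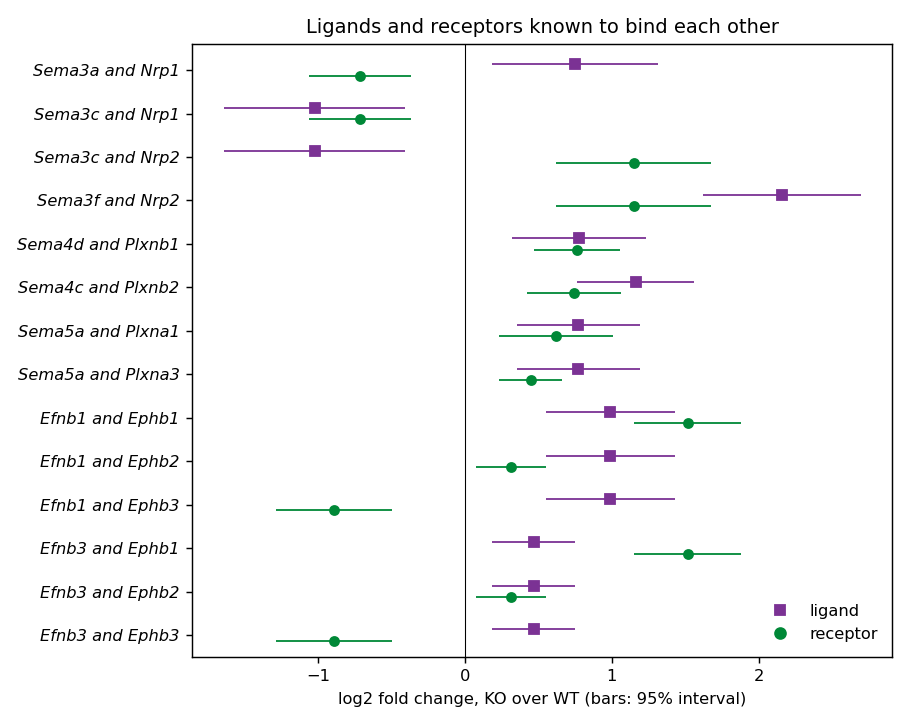
Log2 fold change in KO over WT neurons (x axis) with 95% intervals for ligands (purple squares) and receptors (green circles) known to bind each other, a pair per row. Only the pairs of Sema3a, Sema3c, Sema3f, Sema4c, Sema4d, Sema5a, Efnb1 and Efnb3 are drawn, all ligands that passed the threshold. The rest of the 26 pairs, among them all pairs whose ligand did not pass, are left out. Nrp1 and Ephb3 lie left of 0 beside ligands that lie right of 0, and Sema3c and Nrp1 both lie left of it.

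Co-receptors and intracellular partners of these systems were counted from a list of 53 genes, all of them tested. Of these, 18 rose, 3 fell and 32 did not pass. Their median log2 fold change was 0.15, and the counts stand against 11.0% higher and 10.9% lower in the whole table. Of the 5 collapsin response mediator genes, whose proteins transmit semaphorin signals to microtubules, 4 rose: Dpysl3 (0.85, SE 0.11, adjusted p = 3.32e-12), Crmp1 (0.90, SE 0.14, adjusted p = 4.06e-09), Dpysl5 (0.80, SE 0.15, adjusted p = 6.03e-06) and Dpysl2 (0.51, SE 0.12, adjusted p = 5.27e-04). Dpysl4 was at 0.05 (SE 0.15, adjusted p = 0.870) and did not pass. Rnd1, a small GTPase that binds plexins, also rose (1.35, SE 0.19, adjusted p = 2.89e-10), as did Met, a receptor kinase that associates with B plexins (1.37, SE 0.22, adjusted p = 2.53e-08). The genes that fell were Rgs3, an ephrin-B partner (-0.68, SE 0.15, adjusted p = 9.50e-05), Itgb1, an integrin subunit that Sema7a engages (-0.58, SE 0.18, adjusted p = 0.00884), and Chn1, which encodes the chimaerin downstream of Epha4 (-0.31, SE 0.12, adjusted p = 0.0434). Sema7a and Epha4 themselves did not pass.

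Markers of several cell types moved alongside the guidance genes. The counts of markers stand against 11.0% higher and 10.9% lower of all tested genes, or 16.1% and 16.9% at an unadjusted p under 0.05. Of 17 projection neuron markers, 12 rose and 2 fell. Their median log2 fold change was 0.88, the smallest adjusted p values were those of Etv1 (1.98), Ldb2 (2.76) and Tbr1 (1.90), and their summed implied count in the KO was 1.82 times that in WT. Of 17 GABAergic interneuron markers, 0 rose and 9 fell by DESeq2, or 0 and 11 at an unadjusted p under 0.05. Their median was -1.02, Npy (-2.89), Lhx6 (-1.26) and Nxph1 (-1.14) had the smallest adjusted p, and the summed ratio was 0.587. Among 12 pan-neuronal markers 5 rose and 1 fell, and their median was 0.12. Many ephrins, semaphorins and their receptors are known to be confined to particular cortical layers or neuron types. The part of these markers in the changes of the guidance genes was not tested.

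Non-neuronal markers were mostly scarce. Their counts stand against the same shares of all tested genes, 11.0% higher and 10.9% lower, or 16.1% and 16.9% unadjusted. Of 11 tested microglia and macrophage markers, 0 rose and 6 fell, or 0 and 7 at an unadjusted p under 0.05, with a median log2 fold change of -2.29 and a summed implied count of 231 in the KO against 1034 in WT. Cd68 made up most of it, and P2ry12 and Tmem119, defining markers of microglia, had mean normalized counts of 1.52 and 1.02. Of 6 tested endothelial markers 0 rose and 1 fell, with summed counts of 75.5 in the KO and 111 in WT, and at an unadjusted p under 0.05 the numbers were the same. Cdh5, which defines endothelium, had a mean normalized count of 1.33. Among 8 mural markers 0 rose and 3 fell, also at an unadjusted p under 0.05. Among 9 fibroblast and meningeal markers 2 rose and 1 fell (22.2% and 11.1%), the latter near the share of all tested genes. Among 11 astrocyte markers 3 rose, 0 fell and 8 did not pass (6 rose and 1 fell at an unadjusted p under 0.05). Their median was 0.93 and their summed ratio 1.87. Slc1a2 made up most of both sums, at 17705 of 24791 in the KO and 9274 of 13265 in WT. Among 8 tested oligodendrocyte lineage markers 2 rose and 0 fell (2 and 1 unadjusted). The part of each of these in the results was not tested.

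**Figure D5:**
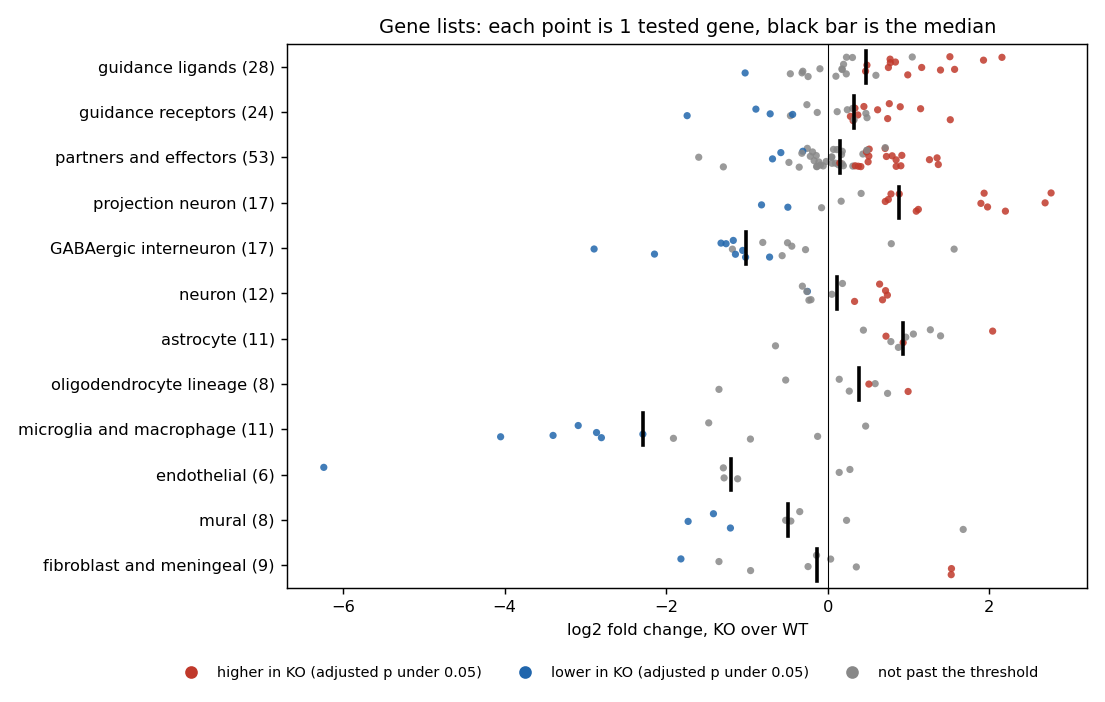
Log2 fold change in KO over WT neurons (x axis) of each tested gene in the guidance ligands, the guidance receptors, their partners and effectors, and 9 lists of cell type markers, with numbers of tested genes in brackets and vertical jitter for display. Black bars are medians, red points rose and blue points fell. The medians of the guidance lists, 0.48 and 0.32, lie between those of the projection neuron markers, 0.88, and the interneuron markers, -1.02. So wide a span also holds the medians of the partners, 0.15, the pan-neuronal markers, 0.12, and all tested genes, -0.02 (not drawn).

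The members are long transcripts, and rises were more frequent among long genes in general. Of the 52 tested members, 26 were among the longest 20% of tested genes by exon length, and of those 15 rose and 3 fell. Among all tested genes of that length, 17.2% rose and 10.7% fell. Of the 26 shorter members, 9 rose and 2 fell, against 9.43% and 11.0% of all shorter genes. Sema6c lies 1.06 Mb from H2bc21 on chromosome 3 and did not pass, and the Efna1, Efna3 and Efna4 group and Sema4a lie 6.89 to 7.79 Mb away. Efnb1 and Plxna3 are X-linked. Xist and the Y-linked Ddx3y had log2 fold changes of 0.37 and -0.12 with SEs of 1.96 and 2.19, so a difference in sex between the groups could not be resolved.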

How the data were processed

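RNA of 4 KO and 4 WT libraries, prepared with a stranded kit per the labels' protocols, was compared by the authors with DESeq2 on build mm10, per the submitters' processing notes, which also name DESeq. The sources used here do not give the aligner, counting tool, strand setting, annotation or versions. Per the file headers, the signal deposited for each gene is its normalized count averaged over all libraries. Fold change and SE were deposited on the log2 scale, the deposited score is the Wald statistic, and the deposited p-value and adjusted p-value are its two-sided p and the Benjamini-Hochberg adjustment. Recomputing that adjustment over the 18085 genes that have one gave a largest gap of 8.68e-07. The table is a comparison, so depth and spread of single libraries are unknown here. The mean normalized counts summed to 3.96e+07.

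The table holds 26229 genes. A p without an adjusted p was given for 8135 of them and no p for 9, and neither kind was counted as tested. All signs were turned to KO over WT, since H2bc21 had a positive deposited value. A gene was called at an adjusted p under 0.05. Implied levels solve for 2 group means whose average is the deposited mean count and whose ratio is the fold change. This is an approximation for equal groups. Exon lengths come from merged exons in GENCODE M21 on GRCm38, the assembly that mm10 names, matched by identifier for 26032 rows. Intervals are 95% normal intervals from the SE. Genes were named by a rule: all members past the threshold with full values, other tested members by value, the 4 smallest adjusted p per direction among partners, and up to 3 for marker lists. Dpysl2, Dpysl4, Dpysl5, Xist, Ddx3y, Zyx and the microglial and endothelial markers of low count were added after their values were seen. Members and lists were chosen with earlier results of these data known. Calls were recomputed at an adjusted p of 0.01, with other filters and nulls and a minimum fold. The code was tested on simulated Wald statistics. Python 3.11.15, numpy 2.4.6, scipy 1.17.1, pandas 2.3.3 and matplotlib 3.10.9 were used.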

Additional observations from a re-analysis of the deposited data

How the results depend on the processing

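The direction of the medians held: for ligands, receptors and all guidance genes they stayed between 0.25 and 0.50 when members under a mean count of 100 were left out, and after subtracting the median of tested genes of like exon length or like mean count (10 bins each). The counts depended on the null distribution of the Wald statistic. An empirical null, centred on the median statistic of all tested genes (-0.10) and 1.95 times as wide as the normal, gave calls for few members. It called 3 guidance genes higher (Sema3f, Ephb1 and Plxnd1) and 0 lower, that is 1 ligand and 2 receptors higher and 0 lower of each. Among the signalling partners 1 was higher and 0 lower, against 0.326% higher and 0.138% lower of all tested genes. At an unadjusted p under 0.05 the empirical null gave 12 higher and 2 lower guidance genes, and 11 and 1 partners, against 4.94% and 3.67%. A t distribution (6 degrees of freedom), adjusted over all genes, called 0 guidance genes, ligands, receptors or partners in either direction. The t distribution called 1 of all 18085 genes, so its adjusted result cannot tell guidance genes from other genes. At an unadjusted p under 0.05 it gave 24 guidance genes higher and 5 lower, against 11.6% and 11.7% of all tested genes. At an adjusted p of 0.01, 17 guidance genes were higher and 3 lower, with 2 receptors lower, against 7.35% and 6.59% of all tested genes. Asking for an absolute log2 fold change of at least 0.5 left 11 ligands and 6 receptors higher, against 7.43% of all tested genes. Without the filter on low mean counts Sema3a and Ephb2 lost their calls. The other counts stayed within 1.5 times the reported ones. No replicate could be left out, since no values per library were used. No paired analysis was possible because the table holds a comparison and no column of a single library, so the replicate numbers of the labels could not be used. Low counts limit Epha1, Efna1, Efna4, Epha2, Ephb4, Sema3b and Sema3g, whose SEs ran from 0.55 to 0.95.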
